A study of Mus musculus with 8 samples.

Results

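The regions described here are the stretches of chromatin that were open in the mouse lens epithelium both before and at birth and that had no peak in lens fibers at either stage. They were chosen by measured values, namely the presence or absence of a peak in 4 deposited peak lists. The peaks of the 4 lists on chromosomes 1 to 19 and X were merged when they lay within 10 bp of each other, which gave 185247 merged regions, and a merged region was kept when it held a peak of the E14.5 epithelium list and a peak of the P0.5 epithelium list and no peak of either fiber list. This left 4219 regions, or 2.28% of all merged regions. Of the 40262 merged regions with a peak in both epithelium lists, they made up 10.5%. These shares follow from the rule and carry no test.

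The lists come from ATAC-seq of lens epithelium and lens fibers microdissected from CD1 mice at 2 stages, E14.5 and P0.5, where E stands for embryonic and P for postnatal day. The 4 groups of 2 libraries each were E14.5 lens epithelium, E14.5 lens fibers, P0.5 lens epithelium and P0.5 lens fibers, all from fresh tissue of 1 outbred strain with no genetic change or treatment named in the labels. ATAC-seq uses a transposase that inserts adapters where DNA is accessible, so that a pile of fragments, called a peak, marks open chromatin. The files used here hold 1 list per group, named as pooled over its libraries, with no value for a single library. The spread between libraries therefore cannot be measured, and no difference between groups below has a replicate check or a p-value. The intervals given are 95% intervals (Wilson for a share, Newcombe for a difference of shares) that cover counting error only and treat regions as independent, which neighbouring regions are not.

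The lens is a single-layered epithelium that covers the front of a mass of elongated fiber cells. Epithelial cells divide, keep an apical to basal polarity and rest on the lens capsule, and at the lens equator they leave the cell cycle and become fibers that fill with crystallins and lose their nuclei. A region open in the epithelium at both stages and absent from both fiber lists was open in the tissue dissected as epithelium and passed no threshold in fibers. Open regions away from promoters are often enhancers, where sequence-specific factors bind. The Tead factors are DNA-binding proteins that bind letters such as GGAATG and act with the coactivators Yap and Taz, which the Hippo kinases keep out of the nucleus in confluent cells. AP-2 factors, among them Tfap2a of the lens vesicle and lens epithelium, bind the palindrome GCCNNNGGC. Pax6, Foxe3 and the adhesion molecule E-cadherin (Cdh1) are long-established genes of the lens epithelium.

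The sequence of the strongest such region in each location class is printed below. These windows are extremes by strength and not typical members. Strength is the worse of a region's ranks in the 2 epithelium lists by fold enrichment, and each window is the 200 bp around the summit of the stronger peak, read from the plus strand of GRCm38 (mm10). Capitals mark Tead letters, as GGAATG or its complement CATTCC, and AP-2 letters, and the rest is in lower case. The promoter window at chr5:122093010-122093209 lies at the start of Myl2, a myosin regulatory light chain gene. The gene body window at chr9:31118568-31118767 lies in an intron of St14, which encodes the membrane serine protease matriptase. The distal window at chr9:24541999-24542198 lies nearest to Dpy19l1, and it holds a stretch of 36 bases that occurs again inside the window. The intergenic window at chr8:77957136-77957335 lies 233 kb upstream of the start of Ednra, the endothelin receptor type A gene, and it is the only window of the 4 that holds the Tead letters.
Myl2: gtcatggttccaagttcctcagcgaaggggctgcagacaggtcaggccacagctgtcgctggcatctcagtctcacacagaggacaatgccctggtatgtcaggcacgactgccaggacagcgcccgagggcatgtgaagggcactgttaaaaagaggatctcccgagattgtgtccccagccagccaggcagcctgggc
St14: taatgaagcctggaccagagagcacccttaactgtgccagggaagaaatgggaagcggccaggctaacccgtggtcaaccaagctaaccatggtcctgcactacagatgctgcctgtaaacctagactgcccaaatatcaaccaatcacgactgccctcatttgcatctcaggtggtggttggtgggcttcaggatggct
Dpy19l1: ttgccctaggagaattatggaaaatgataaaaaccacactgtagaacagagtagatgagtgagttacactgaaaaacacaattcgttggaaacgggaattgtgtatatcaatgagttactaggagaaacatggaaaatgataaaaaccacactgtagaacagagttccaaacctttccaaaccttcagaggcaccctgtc
Ednra: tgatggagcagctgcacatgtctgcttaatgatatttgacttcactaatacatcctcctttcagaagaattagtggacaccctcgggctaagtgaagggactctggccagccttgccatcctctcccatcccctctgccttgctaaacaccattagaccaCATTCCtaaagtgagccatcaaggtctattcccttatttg

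The windows with the most Tead letters, and the strongest window that holds both kinds of letters, show the sequence pattern on which the comparison with fibers turns. The window nearest to Mdga2, a neuronal adhesion gene whose start is 938 kb away, lies at chr12:68160299-68160498 and has 4 matches. The window in an intron shared by Gnas, which encodes the stimulatory G protein alpha subunit, and its antisense gene lies at chr2:174291034-174291233 and has 3. The window nearest to Prkch, a protein kinase C gene, lies at chr12:73687447-73687646 and has 1 Tead match and 1 AP-2 match.
Mdga2: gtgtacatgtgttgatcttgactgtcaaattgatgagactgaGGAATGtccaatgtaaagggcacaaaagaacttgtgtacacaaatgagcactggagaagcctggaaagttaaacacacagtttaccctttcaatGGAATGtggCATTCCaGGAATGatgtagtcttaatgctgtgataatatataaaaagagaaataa
Gnas: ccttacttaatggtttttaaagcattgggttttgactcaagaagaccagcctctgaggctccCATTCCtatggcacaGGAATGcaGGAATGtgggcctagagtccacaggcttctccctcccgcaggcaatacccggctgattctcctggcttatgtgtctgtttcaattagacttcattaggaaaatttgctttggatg
Prkch: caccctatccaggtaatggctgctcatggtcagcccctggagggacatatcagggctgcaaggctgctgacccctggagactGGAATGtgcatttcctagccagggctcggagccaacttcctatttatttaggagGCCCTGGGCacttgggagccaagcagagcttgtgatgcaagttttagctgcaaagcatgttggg

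Regions at genes that define the epithelium, or that encode the factors discussed, are shown for their place and not for their strength. The Pax6 window at chr2:105620980-105621179 lies in an intron of the neighbouring gene Pax6os1, 47.8 kb upstream of the Pax6 start, and holds neither kind of letters. The region nearest to Cdh1 (window chr8:106587135-106587334) lies 16.1 kb upstream of that gene at the promoter of 1110028F18Rik and has 1 Tead match. The Tfap2a window at chr13:40575519-40575718 lies in intergenic DNA 155 kb from the Tfap2a start and has 1 Tead match. The Tead1 window at chr7:112798895-112799094 lies in an intron of Tead1 and has none. Foxe3, Yap1 and the Notch ligand gene Jag1 had no such region for which theirs was the nearest start, although Foxe3 and Yap1 each had 1 within 50 kb that was nearer to another gene.
Pax6: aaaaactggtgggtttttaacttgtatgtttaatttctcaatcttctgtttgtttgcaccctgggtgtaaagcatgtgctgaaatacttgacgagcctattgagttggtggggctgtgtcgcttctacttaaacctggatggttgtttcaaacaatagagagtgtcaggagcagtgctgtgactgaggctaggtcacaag
Cdh1: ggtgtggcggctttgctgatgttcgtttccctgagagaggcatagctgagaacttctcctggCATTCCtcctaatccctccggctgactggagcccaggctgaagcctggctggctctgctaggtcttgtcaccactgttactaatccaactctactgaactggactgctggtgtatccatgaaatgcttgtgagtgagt
Tfap2a: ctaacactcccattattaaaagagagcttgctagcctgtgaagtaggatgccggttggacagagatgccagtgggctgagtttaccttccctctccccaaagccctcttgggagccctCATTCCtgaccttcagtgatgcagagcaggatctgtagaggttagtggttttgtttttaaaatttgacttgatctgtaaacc
Tead1: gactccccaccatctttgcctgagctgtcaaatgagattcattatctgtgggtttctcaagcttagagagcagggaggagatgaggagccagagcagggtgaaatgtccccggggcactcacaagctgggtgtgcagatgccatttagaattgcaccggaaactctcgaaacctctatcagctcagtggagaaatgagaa

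The 4 lists differed in size and strength, which sets what the absence of a fiber peak can mean. On these chromosomes the E14.5 epithelium list held 99901 peaks and the E14.5 fiber list 123673, and at P0.5 they held 58487 and 62903. The median −log10 q of the epithelium lists was 7.39 and 7.08, and that of the fiber lists was 6.21 at the first stage and 2.76 at the second. In the P0.5 fiber list 48.8% of peaks had a q value under 0.001, against 87.9% of the E14.5 epithelium list, 86.7% of its P0.5 counterpart and 80.5% of the E14.5 fiber list. Read depth per library is unknown from these files, so a region outside the fiber lists is one where no fiber peak passed q under 0.05, not one shown to be closed.

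The members were peaks of middling strength in both lists. At E14.5 their −log10 q ran from 1.62 to 72.0 with a median of 7.39 (quartiles 4.66 and 12.5), and the P0.5 values ran from 1.84 to 87.2 with a median of 5.16 (quartiles 3.40 and 8.09). Median fold enrichment over the local background was 5.75 in the E14.5 list and 5.10 in the P0.5 list. A peak at q under 0.001 was present in 93.3% of members at E14.5, where the list as a whole had 87.9%, and in 87.7% at P0.5, where the list had 86.7%. Since presence in the lists chose the members, these strengths are a description.

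Strength at one stage went only partly with strength at the other. Ranked within each list, with 0% the strongest, the median member stood at 46.8% in the E14.5 list and 58.5% in the P0.5 list, and 37.5% of members stood better at P0.5. The lists hold different numbers of peaks, so these ranks also depend on what else each list holds. Spearman's rho between the ranks was 0.424 over the 4219 members, whose 2 ranks come from different libraries but share sequence and mappability. The summits of the 2 stages lay at a median distance of 38 bp (quartiles 15 and 73 bp), and 60.5% lay within 50 bp. Regions open in all 4 groups gave 37 bp and 60.1%. The rule largely sets these distances, since the peaks of both stages had to merge. In members those peaks were a median of 190 bp (E14.5) and 161 bp (P0.5) wide, and in 99.5% of members they overlapped. The median member was 243 bp wide (quartiles 182 and 325 bp), while the median was 373 bp for fiber regions open at both stages, 147 bp for regions open only in E14.5 epithelium, 122.5 bp for those open only in P0.5 epithelium and 1177 bp for regions open in all 4 groups.

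The threshold fell through a continuum. Just inside it were an intron region of the heparan sulfate sulfatase gene Sulf1 at chr1:12734545-12734724, with −log10 q of 1.62 at E14.5 and 5.16 at P0.5, and a region nearest to Cnga3 in an intron of Vwa3b at chr1:37124677-37124989, with 1.62 and 2.59. Just outside it was another intron region of Sulf1 at chr1:12711264-12711922, with 4.66 and 7.08 in epithelium, which a P0.5 fiber peak of 1.33 kept out. A region in a coding exon of the potassium channel gene Kcnj10 at chr1:172368911-172369181 had 15.9 and 6.10 in epithelium and was also kept out by a P0.5 fiber peak of 1.33. Fiber peaks none of which reached q under 0.001 kept out 899 regions in all.

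By location the members were elements away from promoters. Only 322 of the 4219 (7.63%, 6.87 to 8.47%) lay within 2 kb of a transcription start, 2029 (48.1%) lay in gene bodies, 1074 (25.5%) within 50 kb of a gene body and 794 (18.8%, 17.7 to 20.03%) in intergenic DNA farther out. All merged regions had 16.4% in promoters, 55.01% in gene bodies, 20.9% distal and 7.665% intergenic. Against these, the members differed by −8.79 points in promoters (−9.57 to −7.93) and by −6.91 points in gene bodies (−8.44 to −5.39). In intergenic DNA the members were 11.15 points higher than all merged regions (9.997 to 12.37). Fiber regions open at both stages, formed by the mirror image of the rule, had 12.9% in promoters, 67.4% in gene bodies, 16.1% distal and 3.62% intergenic. The members thus exceeded them by 15.2 points in intergenic share (13.9 to 16.5) and by 9.35 points in distal share (7.65 to 11.04), and lay below them by 19.3 points in gene bodies (difference −19.3, −21.3 to −17.3) and by 5.24 points in promoters (−5.24, −6.50 to −3.97). Counting predicted as well as curated transcripts raised the members' promoter share to 13.3% and lowered their intergenic share to 8.18%.

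**Figure D1:**
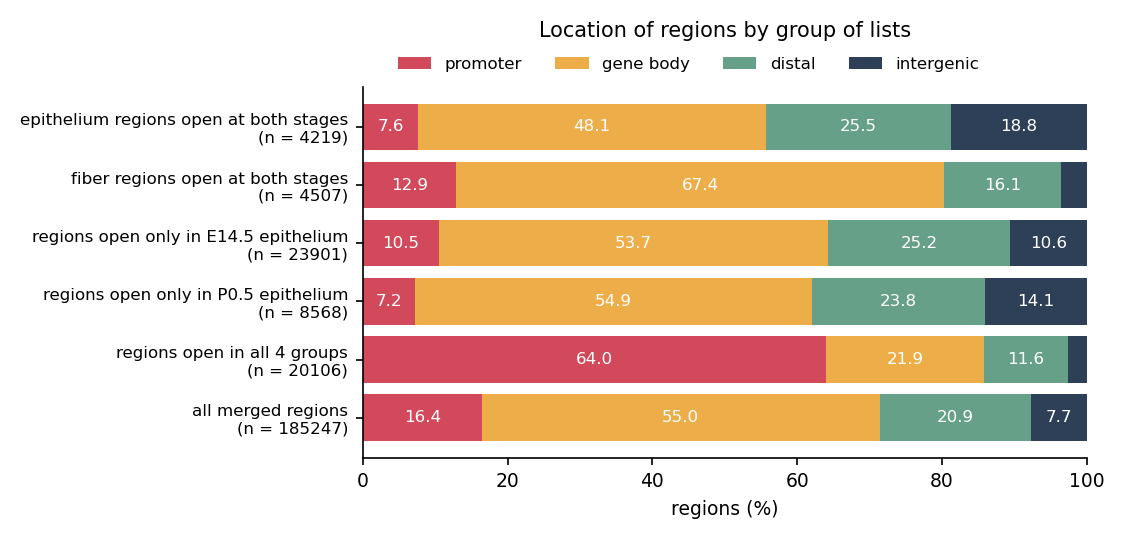
Share of regions (percent, horizontal axis) in promoters, gene bodies, distal and intergenic DNA for 6 groups of merged regions, with the number of regions beside each bar. The epithelium regions open at both stages have 7.63% in promoters and 18.8% in intergenic DNA, against 12.9% and 3.62% for fiber regions open at both stages.

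The members also had the larger intergenic share beside epithelium regions of 1 stage. Regions open only in E14.5 epithelium had 10.5% in promoters and 10.6% in intergenic DNA, and regions open only in P0.5 epithelium had 7.18% and 14.1%. The members' intergenic share was higher than these by 8.22 points (7.004 to 9.49) and by 4.70 points (3.32 to 6.10). The promoter share of the members differed from that of the regions open only in P0.5 epithelium by 0.454 points, with an interval that included 0 (−0.496 to 1.45). The median distance of a member's summit to the nearest transcription start was 46.7 kb (quartiles 14.2 and 130 kb), against 16.0 kb for fiber regions open at both stages, 0.278 kb for regions open in all 4 groups and 21.9 kb for all merged regions. By summit, 47.4% of members lay in an intron (61.4% for fiber regions), 3.03% in a coding exon (12.4%), 2.35% in a noncoding exon or UTR and 47.2% outside genes (22.1%).

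Most promoters that held a member were not without fiber peaks. Of the 322 members in promoters, 215 (66.8%, 61.5 to 71.7%) had a fiber peak elsewhere in the same promoter. A region at chr10:56377149-56377479 had its summit 0.077 kb upstream of the start of Gja1, the connexin 43 gene of epithelial gap junctions, with −log10 q of 14.7 at the earlier and 10.2 at the later stage. The promoter of Bmp4, a ligand needed for lens induction, held a region at chr14:46390296-46390692 with 3.83 and 3.40. Over all classes, the nearest fiber peak lay a median of 3.82 kb from a member, and it lay within 1 kb for 1080 members (25.6%).

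The Tead letters were more frequent in these regions than in any other group compared. GGAATG, searched on both strands in the 200 bp at the summit, occurred in 1263 of the 4219 members (29.9%, 28.6 to 31.3%). The share was 10.7% in fiber regions open at both stages, a difference of 19.2 points (17.6 to 20.9). Regions open only in E14.5 epithelium had 16.9%, below the members by 13.1 points (11.6 to 14.53), and regions open only in P0.5 epithelium had 16.6%, below them by 13.3 points (11.8 to 14.9). Regions open in all 4 groups had 9.71% and all merged regions 13.7%. When all merged regions were reweighted to the widths and GC contents of the members, the expected share was 14.8%, so the members had 2.02 times as many. The same letters in reversed order occurred in 4.69% of members, 0.727 times the reweighted share.

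Among regions open in both epithelia, the share fell with each fiber list that also held a peak. It was 29.9% with no fiber peak, 19.8% (19.2 to 20.4%) for the 15589 regions with a peak in the E14.5 fiber list only, 19.8% (16.0 to 24.3%) for the 348 with a peak in the P0.5 fiber list only and 9.71% (9.31 to 10.1%) for the 20106 with peaks in both. The 4 groups differed in other ways as well. In the same order, the median −log10 q of the E14.5 epithelium peak was 7.39, 17.01, 5.54 and 65.7, and the promoter share was 7.63%, 14.6%, 14.1% and 63.95%.

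The difference from fiber regions was present in each location class. Within promoters 18.3% of members held the Tead letters against 8.45% of fiber regions open at both stages. The shares were 31.4% against 10.7% in gene bodies, 28.5% against 11.6% in distal DNA and 33.0% against 14.1% in intergenic DNA, so the members stood higher in each of the 4 classes.

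The matches lay under the peak summit. In members there were 24.4 matches per 10000 bp within 25 bp of the summit, 22.0 from 25 to 50 bp, 13.1 from 50 to 100 bp, 7.87 from 100 to 200 bp and 6.79 from 200 to 300 bp. In fiber regions open at both stages the density was 6.17 next to the summit and 5.61 at 200 to 300 bp. Regions open only in E14.5 epithelium went from 11.7 to 6.31. The reversed letters did not rise toward the summit of members, with 2.09 next to it and 3.698 at the edge.

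**Figure D2:**
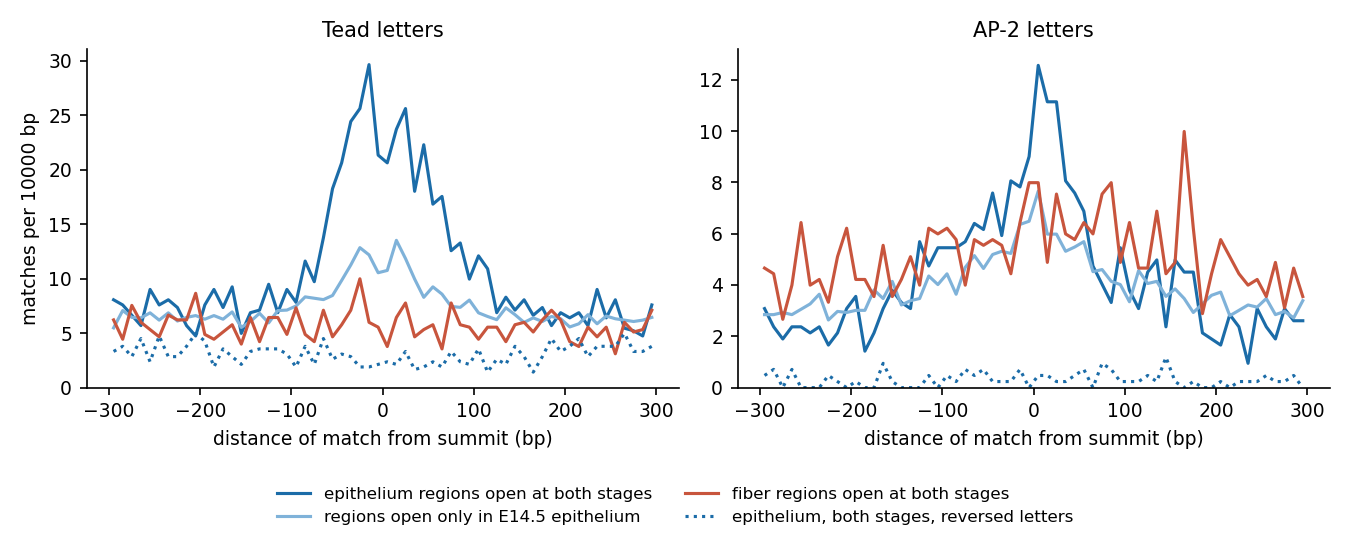
Matches per 10000 bp (vertical axes) by distance from the summit (horizontal axes, bp, bins of 10 bp) for Tead letters on the left and AP-2 letters on the right. In epithelium regions open at both stages (dark blue) Tead matches average 24.4 per 10000 bp within 25 bp of the summit, with a highest bin of 29.6. At 200 to 300 bp they average 6.79. Fiber regions open at both stages (red) average between 5.44 and 6.30 in the 5 distance ranges given in the text.

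Within the members, stronger peaks held the Tead letters more often. In bins of E14.5 peak strength the share was 19.7% in the weakest (−log10 q 1.62 to 3.83), 25.4%, 29.4% and 32.8% in the next, and 39.0% (36.0 to 42.2%) in the strongest (13.6 to 72.0). By P0.5 strength it was 20.7%, 26.8%, 29.7%, 31.9% and 36.1% (33.2 to 39.0%). Regions open in all 4 groups showed no such rise, with shares between 9.34% and 12.1% in the same E14.5 bins and between 9.32% and 13.2% in the P0.5 bins. Regions open only in E14.5 epithelium rose from 13.3% to 25.6%, and those open only in P0.5 epithelium from 14.8% to 30.2% (25.3 to 35.8%), so in every bin of either stage the members had the highest share of the 3 groups, although intervals overlapped in the strongest P0.5 bin (with regions open only in P0.5 epithelium) and in the weakest E14.5 bin (with regions open in all 4 groups).

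**Figure D3:**
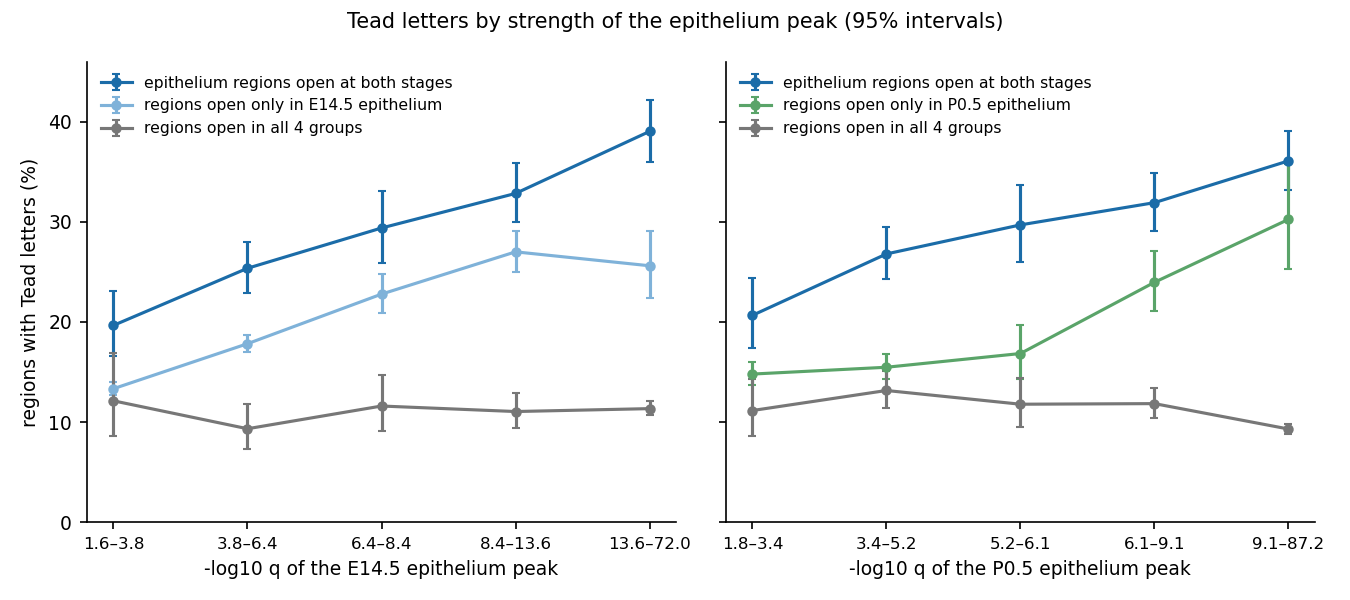
Percent of regions with Tead letters within 100 bp of the summit (vertical axes) in 5 bins of the −log10 q of the E14.5 epithelium peak (left) and of the P0.5 epithelium peak (right), with 95% intervals as bars. Epithelium regions open at both stages (dark blue) rise from 19.7% to 39.0% on the left and from 20.7% to 36.1% on the right, and regions open in all 4 groups (grey) stay between 9.32% and 13.2%.

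Repeated Tead letters were also more frequent in the members. At least 2 matches stood in 225 members (5.33%), against 35 fiber regions open at both stages (0.777%), 1.85% of regions open only in E14.5 epithelium and 1.25% of all merged regions. At least 3 matches stood in 27 members (0.640%) and in 0 of the 4507 fiber regions, and the Mdga2 and Gnas windows printed above are among these members. The most frequent spacing among the 282 pairs was 5 bp from start to start on the same strand, with 14 pairs or 4.97%, against 2.98% of the pairs in all merged regions.

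The bases that flank the letters differed too. Of the 1506 matches in members, GGAATG was followed by T in 43.4% (40.9 to 45.9%) and by C in 31.7%, against 21.8% and 19.2% of the 510 matches in fiber regions and 30.2% and 25.2% of the matches in all merged regions. G followed in 11.1% of matches in members and 35.1% in fiber regions. Before the letters stood A in 42.1% of members' matches and T in 39.1%, against 32.9% and 28.8% in fiber regions and 37.1% and 31.9% in all merged regions.

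Counting all 2080 six-letter words, with a word and its complement as 1, GGAATG had the highest ratio of the members' share to the reweighted share (2.02). The words next in order were AGGAAT with 1.92, then ACATTC with 1.85, then ATTCCA with 1.84 and then GAATGC with 1.83, and each of these overlaps GGAATG or its complement by 5 letters. This order was made after the values were seen and is a description.

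AP-2 letters gave a smaller difference that depended on the setting. GCCNNNGGC occurred in 551 members (13.1%, 12.1 to 14.1%), 11.1% of fiber regions open at both stages, 9.52% of regions open only in E14.5 epithelium, 10.1% of those open only in P0.5 epithelium, 21.7% of regions open in all 4 groups and 10.7% of all merged regions. The reweighted share was 8.50%, a ratio of 1.54, the second highest of the 22 motifs searched, and the reversed letters had a ratio of 0.883. The difference from fiber regions was 1.94 points (0.576 to 3.32) in the 200 bp window. It changed sign to −0.528 in a 400 bp window, to −5.30 over whole regions and to −0.218 when all 4 lists were limited to q under 0.001. Its interval also included 0 with equal numbers of peaks per list (1.51, −0.167 to 3.09) and where the peaks of both stages overlapped by at least 50% (1.77, −0.296 to 3.74). Near the summit the members had the higher density, 10.3 against 6.43 matches per 10000 bp within 25 bp, and at 200 to 300 bp they had the lower, 2.36 against 4.39. AP-2 letters were no more frequent in members with Tead letters (12.6%) than in those without (13.3%), a difference of −0.672 points (−2.81 to 1.60).

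The other 20 motifs were textbook letters of factors that act in the lens or that the authors looked at, and by ratio to the reweighted share they ranked below Tead and AP-2. Letters of developmental factors were among those higher in members than in fiber regions. The median GC content of the windows was 50.5% in members, 55.0% in fiber regions and 53.0% over all merged regions. The differences from fiber regions were not adjusted for it, whereas the reweighted shares were. Pitx letters (TAATCC) stood in 9.01% of members and 4.53% of fiber regions, a ratio of 1.37 to the reweighted share. Sox letters (AACAAT), bound by Sox2 in the epithelium and Sox1 in fibers, stood in 10.4% and 4.90% (ratio 1.17). Tcf letters (CTTTGA), the site through which Wnt signals act, stood in 15.2% and 9.54% (1.23). Gata letters (AGATAA) stood in 8.77% of members and 4.64% of fiber regions (1.19). Forkhead letters (TGTTTAC), of the family that includes Foxe3, stood in 3.06% of members and 1.84% of fiber regions (1.18). The common homeobox letters (TAATTA) were found in 2.80% of members and 1.24% of fiber regions (1.2). In reversed order the letters gave ratios of 1.1 for Sox, 1.05 for Pitx, 1.05 for Gata, 1.05 for forkhead and 0.964 for Tcf.

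Letters of broadly expressed factors were in the same direction. Nuclear factor I letters (TTGGCA) stood in 14.4% of members and 11.2% of fiber regions (1.28), and Sp letters (GGGCGG) in 7.44% and 5.86% (1.37). Rbpj letters (TGGGAA), the DNA end of Notch signalling, stood in 21.4% and 18.9% (1.11). The values were 5.74% and 2.84% (1.32) for heat shock factors (GAANNTTC), among them Hsf4 of lens fibers, and 17.7% and 12.4% (1.09) for Nfat (TGGAAA). For Nfy (CCAAT) they were 23.0% and 17.2% (1.09), and for Ets factors (GGAAGT) 11.7% and 9.79% (0.967). These 13 motifs had a 95% interval of the difference above 0. In the whole merged region, where the wider fiber regions hold more letters, this was so for 3. Reversed letters gave ratios of 1.32 for Sp, 1.28 for homeobox proteins and 1.2 for heat shock factors, close to those of the letters themselves.

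Maf letters pointed the other way. TGCTGA, bound by the large Maf factors that drive crystallin genes in fibers, occurred in 19.4% of members and 28.8% of fiber regions open at both stages, a difference of −9.48 points (−11.3 to −7.69), and 23.1% of all merged regions. The members' ratio to the reweighted share was 0.797, the lowest of the 22. The nuclear receptor site (AGGTCA, 12.0% against 17.1%, ratio 0.819) and Runx (TGTGGT, 14.0% against 16.9%, 0.850) were also less frequent in members than in fiber regions. AP4 (CAGCTG, 19.8% against 22.2%, 1.13) and Meis (TGACAG, 20.03% against 22.4%, 0.996) were below the fiber share, though close to or above the reweighted one. AP-1 (TGANTCA, 7.11% against 6.35%) and Pax (TCACGC, 3.44% against 3.53%) had intervals of the difference that included 0.

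**Figure D4:**
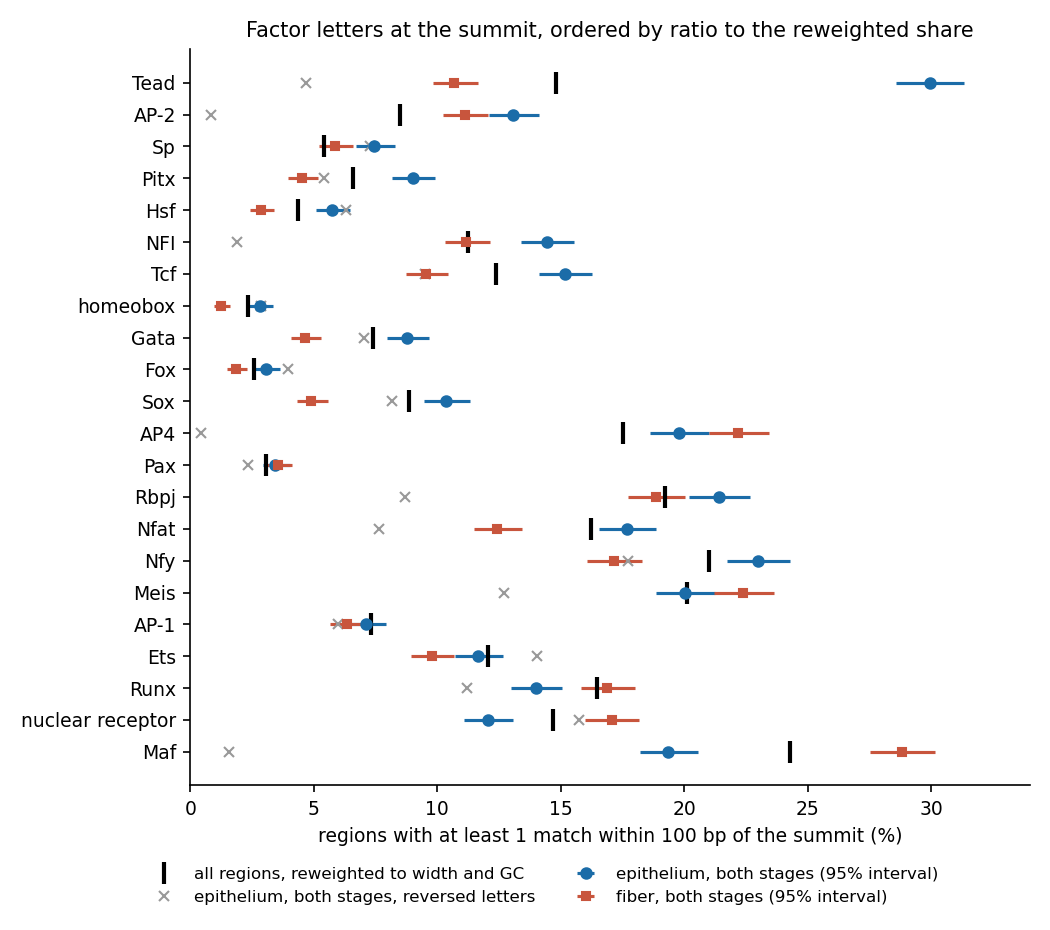
Percent of regions with at least 1 match within 100 bp of the summit (horizontal axis) for 22 motifs in epithelium regions open at both stages (blue) and fiber regions open at both stages (red) with 95% intervals, with the reweighted share of all merged regions (black bars) and the reversed letters in the epithelium regions (crosses). Tead letters stand farthest from the reweighted share, at 29.9% against 14.8%, and Maf letters stand below it, at 19.4%.

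Across all merged regions, in windows of the same 200 bp, the shares were 10.8% for Sp, 5.65% for Pitx, 3.93% for heat shock factors, 10.9% for nuclear factor I and 11.1% for Tcf. The signalling and developmental sites stood at 7.03% for Sox, 6.17% for Gata, 2.17% for forkhead, 1.84% for homeobox, 14.7% for Nfat, 3.65% for Pax and 15.6% for Runx letters. The remaining shares over all merged regions were 19.01% for Rbpj, 20.8% for Nfy, 12.5% for Ets, 14.3% for nuclear receptor, 18.2% for AP4, 19.2% for Meis and 6.61% for AP-1 letters. Within the members, 25.8% of those with Tead letters and 19.5% of those without held Rbpj letters, a difference of 6.29 points (3.53 to 9.14), and for heat shock factors the values were 7.84% and 4.84% (3.001 points, 1.41 to 4.77). Both motifs can overlap GGAATG, since they share bases of it. Pitx was at 10.5% and 8.39% (2.06 points, 0.171 to 4.10), and Sp was lower with Tead letters, at 5.86% and 8.12% (−2.26 points, −3.82 to −0.550).

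The strongest members were spread over genes of many kinds. In St14 the region chr9:31118516-31118869 had −log10 q of 47.6 at E14.5 and 44.2 at P0.5, which is 18.02-fold and 18.3-fold over the local background. The Ednra region chr8:77957093-77957473 had 46.1 and 42.8, and the Dpy19l1 region chr9:24542050-24542155 had 44.7 and 42.8. They were followed by regions nearest to Rgs2, a regulator of G protein signalling (43.2 and 38.4), Hk2, a hexokinase gene (43.2 and 39.9), Gm1322 (49.0 and 31.4), Slc7a11, the cystine and glutamate exchanger gene (40.4 and 54.8), Elovl6, a fatty acid elongase gene (39.0 and 32.8), Myl2 (41.8 and 29.99) and Gm2237 (37.6 and 87.2). Of the 10, 2 held Tead letters (Ednra and Rgs2) and 2 held AP-2 letters (Gm1322 and Slc7a11). Of the 10, 1 lay in a promoter.

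The widest members gave another set of genes. They were a 1098 bp region 39.0 kb upstream of Lifr, a cytokine receptor gene (chr15:7089935-7091032, −log10 q 21.8 and 24.6), a 1036 bp region at Amotl2, a 1021 bp region nearest to Bmp7 (chr2:172862610-172863630, 5.54 and 7.08, 2 Tead matches), a 999 bp region nearest to Serp2 (chr14:76702578-76703576, 18.2 and 11.3) and a 975 bp region in Cpn2 with its summit in a coding exon (chr16:30259220-30260194, 9.36 and 5.16). By Tead letters the region nearest to Mdga2 came first with 4 matches. The regions nearest to Gnas, Kcnab1, Gas1 and Anxa10, with 3 matches each, are the strongest of a larger number that tie at 3, since 27 members have at least 3.

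The sequence at most summits was particular to its place in the genome. The 32 bases at the summit occurred more than once in the reference for 144 members (3.41%, 2.91 to 4.01%), 5.15% of fiber regions and 4.32% of all merged regions, and for 6 members they occurred over 100 times, with a most of 1831 for a region nearest to Morc3. Leaving out all 144 left 29.8% of the remaining 4075 with Tead letters and 7.56% in promoters. Over 50% of the window was repeat sequence in 1.45% of members and 3.02% of all merged regions.

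The members were less clustered than fiber regions open at both stages. Another member lay within 10 kb of 508 (12.0%), whereas 30.2% of fiber regions open at both stages had another of their kind that near, and clusters of 3 or more with steps of at most 10 kb numbered 22 against 147. Each chromosome held between 1.83% (chromosome 17) and 3.24% (chromosome 18) of its merged regions as members, and X held 2.93%. Of the members, 31 (0.735%, 0.518 to 1.04%) overlapped an enhancer in the RefSeq annotation, against 12 fiber regions (0.266%) and 796 of all merged regions (0.430%). An enhancer annotated as active in the eye or lens was overlapped by 1 member (0.0237%), near Lratd2 at chr15:60853290-60853507, beside 2 fiber regions (0.0444%) and 60 of all merged regions (0.0324%).

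Assigned to the nearest transcription start, the members fell to 2915 of the 20923 protein-coding genes in the annotation (13.9%), and 4584 genes (21.9%) had one within 50 kb. At least 2 members fell to 838 genes, at least 3 to 280 and at least 5 to 47. Nearness does not show that a region controls a gene, and a region counted for a gene here and in the lists below can lie well outside 50 kb of it. Serp2, Adgrl2, an adhesion G protein-coupled receptor gene, and Tenm4, a teneurin gene, had 8 members each. Tgif1, a repressor in TGF-beta signalling, Sh3bgrl2, the protocadherin gene Pcdh7, the focal adhesion gene Lpp, the insulin receptor substrate gene Irs2 and the focal adhesion gene Tns1 had 7 each, and 16 genes tied at 6.

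Some of these genes carried many of their open regions as members. For Amotl2 and for Anxa1, which encodes a membrane-binding annexin, 6 of 26 merged regions (23.1%) were members, and for Tgif1 7 of 41 (17.1%) and for Serp2 8 of 47 (17.0%) were, where the share over all merged regions was 2.28%. The genes were picked for their counts, so these shares are descriptions. The single strongest E14.5 peak of any member lay in the body of Lpp, with its summit in a noncoding exon or UTR, at chr16:24979179-24979790, with −log10 q of 72.0 at E14.5 and 24.6 at P0.5, and 4 of the 7 Lpp members held Tead letters. For Pcdh7 5 of 7 and for Myc, the growth-promoting transcription factor, 4 of 6 did. At the other end of the 20 genes with the most members, 0 of 6 did for Anxa1, 0 of 6 for Mctp2 and 1 of 7 for Tgif1. The share over all members was 29.9%. No Myc member lay within 50 kb of the gene. Of the 6 assigned to Wwc1, a Hippo pathway scaffold also known as Kibra, none lay within 50 kb of it either, and all lay in the body of its neighbour Tenm2.

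Genes known as targets of Yap and Tead had a larger share of members than genes in general, as a description with no test. Of 10 such genes in a list chosen with earlier results of these data known, 7 had a member, and 17 of their 289 merged regions (5.88%, 3.71 to 9.22%) were members, beside 2.28% over all genes. Of their regions open in both epithelia 20.5% (13.2 to 30.4%) were members, beside 10.5% over all, and 7 of the 17 held Tead letters. The list is small, and Amotl2 alone gave 6 of the 17. For Ankrd1, a muscle and stretch response gene with no member within 50 kb, the region chr19:36214644-36214883, 94.9 kb upstream, had −log10 q of 21.8 at E14.5 and 13.5 at P0.5 and held 1 Tead match. The matricellular gene Ccn1 had a region 53.6 kb upstream at chr3:145703340-145703816 with 2 Tead matches (7.39 and 8.09). Its relative Ccn2, also known as connective tissue growth factor, had one 4.08 kb upstream at chr10:24591267-24591419 with none (15.9 and 12.4) and one 185 kb upstream with 2 (9.36 and 4.26). F3, the tissue factor gene, and Tgfb2, a growth factor gene, had 2 members each, and Nuak2, a kinase gene, had 1 with 2 Tead matches (10.4 and 2.59).

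Amotl2, whose protein binds Yap at cell junctions, shows how members sit among shared peaks. Its 6 members lay at chr9:102714911-102715946 (−log10 q 5.54 at E14.5 and 5.16 at P0.5), at the upstream edge of its own promoter, at chr9:102729147-102729682 in the gene (7.39 and 5.16), at chr9:102737478-102737655 at the start of another transcript (1.62 and 3.40), at chr9:102746745-102747165 in the neighbouring gene Gm5627 (19.4 and 22.1) and at chr9:102763631-102763816 and chr9:102766875-102767058 downstream (3.04 and 5.16, then 6.44 and 4.26). The strongest of them, in Gm5627, held no Tead letters, while 3 of the weaker ones held 1 match each. All 4 lists had peaks at the gene's start itself.

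**Figure D5:**
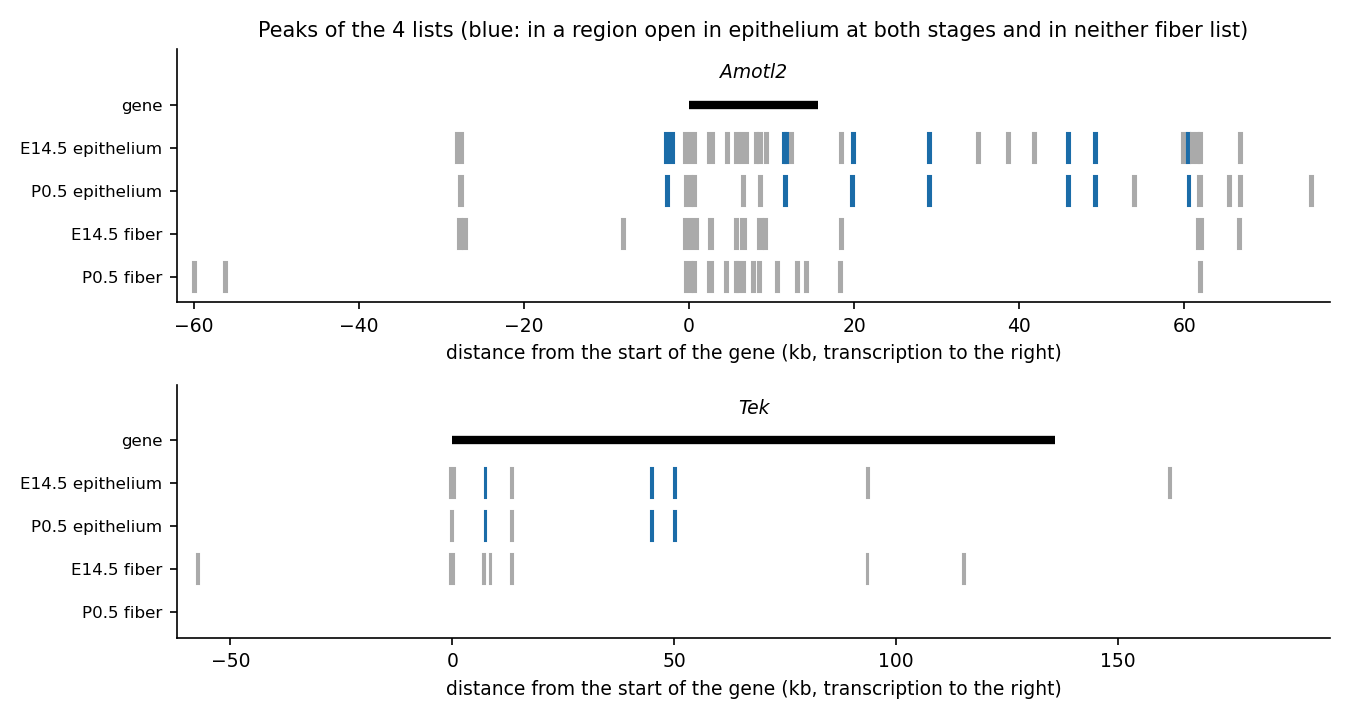
Peaks of the 4 lists (rows) by distance from the start of Amotl2 (top) and Tek (bottom) in kb, with the gene as a black bar; blue marks peaks inside epithelium regions open at both stages, grey all others, and peaks are drawn at least 0.35 kb wide. The Amotl2 start has peaks in all 4 lists, whereas its blue regions lie beside it, and the 3 blue regions of Tek lie in the gene, where the P0.5 fiber list has no peak.

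Per merged region the Hippo pathway genes themselves stood near the background. Members fell to 6 of the 24 genes (25%, beside 13.9% over all genes), and 11 of their 413 merged regions (2.66%, beside 2.28%) were members, of which 6 were those assigned to Wwc1. The coactivator gene Wwtr1, which encodes Taz, had a region in an intron with 1 Tead match (chr3:57503598-57503826, −log10 q 12.5 and 6.10). Tead1 had 1 in an intron (3.04 and 4.26), 193 bp from a fiber peak. The kinase gene Lats2 had 1 upstream at 7.73 kb (23.1 and 4.26), and the phosphatase gene Ptpn14 and the kinase gene Stk3 had 1 each. Among AP-2 factors Tfap2a and Tfap2d had 1 each, or 2 of 99 merged regions of the list (2.02%, 0.556 to 7.07%). Within 50 kb 0 of these AP-2 factor genes had a member. Among nuclear factor I genes Nfia had 4 and Nfib 1, or 5 of 149 merged regions (3.36%, 1.44 to 7.61%). Both intervals included the 2.28% over all.

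Lens epithelium markers had promoter peaks in all groups, and most of them had a single member. Of the 10 markers 8 had at least 1 member, but 10 of their 407 merged regions (2.46%, 1.34 to 4.46%) were members, close to the 2.28% of all regions. Of their 132 regions open in both epithelia 7.58% (4.17 to 13.4%) were members, beside 10.5% over all. All 10 promoters had a peak in each of the 4 lists. Besides the regions at Pax6 (chr2:105621042-105621233, −log10 q 25.6 and 8.09), Gja1, Cdh1 and Tfap2a, a region at chr17:85458176-85458314 lay 163 kb from the start of Six3, a repressor needed for lens formation, inside Camkmt (24.3 and 22.1), and held both Tead and AP-2 letters. Sox2 had 3, one of them in its overlapping transcript Sox2ot (3.83 and 5.16). For 15 lens fiber markers the count was 3 of 492 merged regions (0.610%, 0.208 to 1.78%) and 3 of 78 open in both epithelia (3.85%), nearest to Grifin, Maf and Prox1, the last a region 310 kb upstream of the gene (23.1 and 11.3). Peaks in the promoters of these fiber markers were found in 12 of 15 in each epithelium list and in 14 (E14.5) and 13 (P0.5) in the fiber lists, so promoter peaks did not separate the tissues.

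Lens transcription factors and signalling genes had a member more often per gene than the 13.9% over all genes, and per merged region they lay close to the 2.28% over all. Of 24 lens transcription factors 18 (75%) had a member, with 34 of 1367 merged regions (2.49%). Myc had 6 and Gata3, which acts in fiber cell cycle exit, had 4, none of them within 50 kb of either gene, and Meis1 and Meis2 had 3 each, with 0 and 2 within 50 kb. In BMP and TGF-beta signalling 15 of 36 genes (41.7%) had one (25 of 836 merged regions, 2.99%), with 4 nearest to the ligand gene Bmp2, 3 to Bmp7, 3 to the inhibitor Smad7 and 2 to Bmp4. Within 50 kb these genes had 2, 2, 1 and 1. In Wnt signalling 25 of 52 genes (48.1%) had one (43 of 1414, 3.04%, 2.27 to 4.07%), with 4 nearest to the antagonist Dkk1 and 3 each to the corepressors Tle1 and Tle3. Within 50 kb they had 2, 2 and 1. In Notch signalling 6 of 23 genes (26.1%) had one (12 of 594, 2.02%), among them Rbpj, the DNA-binding partner of Notch, with 4 (1 within 50 kb), and the targets Hes1 with 2 (0 within 50 kb) and Hey1 and Heyl with 1 each. FGF and ERK signalling had 8 of 27 genes (29.6%; 12 of 596, 2.01%), with 2 nearest to the receptor gene Fgfr2, which had 1 within 50 kb.

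Structural and cell cycle genes were similar. Junction and polarity genes had members at 10 of 27 (17 of 1103, 1.54%), lens capsule and matrix genes at 13 of 29 (15 of 654, 2.29%), actomyosin genes at 8 of 21 (11 of 348, 3.16%) and cell cycle genes at 5 of 23 (11 of 292, 3.77%), with 4 nearest to the proliferation marker Mki67, none of them within 50 kb, and 3 nearest to cyclin D1 (Ccnd1), which had 1 within 50 kb. Of 16 crystallin genes 1 had any, with 6 regions assigned to Cryba4 that lay 108 to 375 kb from its start and made up 6 of the 243 merged regions of the list (2.47%). Of 10 AP-1 genes 1 had any by nearest start, Jun, with 2 (2 of 165 merged regions, 1.21%), neither of them within 50 kb, while 3 other AP-1 genes had 1 each within 50 kb.

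Markers of vascular endothelium, which lines vessels beside the lens, held the largest share of members among the 22 lists. Its wide interval overlapped those of several other lists, among them the Yap and Tead targets, the macrophage markers and the cell cycle genes. Members fell to 5 of 8 such genes, and 11 of their 119 merged regions (9.24%, 5.24 to 15.8%) were members. Of their regions open in both epithelia it was 31.4% (18.6 to 48.0%), beside 10.5% over all. Cdh5, the endothelial cadherin gene, had 5, of which 1 lay within 50 kb, the strongest, 24.6 kb upstream with −log10 q of 25.6 and 19.5, and Tek, the angiopoietin receptor gene, had 3 inside the gene, at 7.40, 44.9 and 50.2 kb from its start. The receptor gene Kdr had 1 in an intron (11.4 and 10.2), the transcription factor gene Erg 1 in an intron (14.7 and 8.09) and Emcn 1, outside 50 kb, at 329 kb (21.8 and 5.16), and 4 of the 11 held Tead letters. Promoter peaks of the 8 genes were found at E14.5 for 7 in epithelium and 6 in fibers, and at P0.5 for 5 and 3, and none of these promoters was in the 2 epithelium lists alone. The part of vascular cells in the members was not tested.

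Markers of the cornea, the retina and macrophages had few members, and those of the cornea also had few merged regions. The 8 cornea and surface ectoderm markers had 0 of 31 merged regions, and their promoters had an epithelium peak for 1 gene at E14.5 and 2 at P0.5. Retina and optic cup markers had 3 of 132 (2.27%, 0.776 to 6.47%), nearest to Rax and Otx2, and macrophage markers 2 of 65 (3.08%, 0.848 to 10.5%), with intervals that included the 2.28% over all genes. Of their regions open in both epithelia 12.5% and 16.7% were members, beside 10.5% over all. Promoter peaks of the 7 macrophage markers were found for 3 at E14.5 and 1 at P0.5 in each tissue. The 10 retina and optic cup markers had more. At the earlier stage 8 of their promoters held an epithelium peak and 9 a fiber peak, and at the later stage 7 and 4 did. The part of these cells in the members was not tested.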

How the data were processed

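ATAC-seq was done on microdissected CD1 mouse lens epithelium and fibers (E14.5, P0.5; 4 groups, 2 libraries per group). Per the labels and methods, the authors trimmed reads with Trim Galore 0.4.1, aligned them to mm10 with Bowtie2 2.3.3.1, filtered them with SAMtools 1.2 and Picard 2.1.1, and called peaks with MACS2 2.1 at q under 0.05. No control library is named. The deposited lists give for each peak a fold enrichment (a ratio to local background), a −log10 p value, a −log10 q value and a summit, and 0 columns were left without a group. The lists are named as pooled over the libraries of a group, and the step at which they were pooled is not given in the sources used here. Neither an error between libraries nor a test was therefore possible, and depth is unknown from these files.

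Peaks were merged with bedtools 2.31.1 at 10 bp. Regions on the mm10 blacklist, which the paper filtered out after merging, were not removed in a separate step here. The summit of the peak with the smallest p value set the 200 bp window, searched in RefSeq GRCm38.p6 with pysam 0.24.0 and Python 3.11.15 (pandas 2.3.3, numpy 2.4.6). Locations were assigned stepwise (promoter, gene body, distal within 50 kb, intergenic) from 45657 curated transcripts. For reweighted shares, all merged regions were weighted to the members over 25 bins of width and GC content. The code was tested on simulated data. Other q values, merge distances, windows, promoter widths, transcript sets and overlaps were tried.

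The members, motifs and gene lists were chosen with earlier results of these data known. Named genes were those of 22 lists (the result of 1 list is not reported here), the 20 with the most members, and those nearest to the 10 strongest, 5 widest and 5 most Tead-rich members and to those next to the threshold. The check of sequence copies in the genome was added after the data were seen.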

Additional observations from a re-analysis of the deposited data

How the results depend on the processing

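Depth, and so the power to find a fiber peak, is unknown from the files. No paired analysis was possible because each list pools both libraries of its group, and leaving out a replicate was not possible for the same reason. The number of regions was 4234 at q under 0.001 in all 4 lists (3510 shared with the 4219), 3512 at that limit in epithelium alone, and 5568, of which 2739 were shared, with the 58487 strongest peaks of each list. Other numbers ran from 2881 to 4218. Of 74 alternative values 50 stayed within the interval or 1.5 times of the reported one, 21 moved and 3 changed sign.

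The AP-2 difference from fiber regions changed sign to −0.218 points at q under 0.001 in all lists, to −0.528 in 400 bp and to −5.30 over whole regions; the cause was not tested. The Tead share was 31.8% and its difference from fiber 21.1 points at q under 0.001 in epithelium alone, and the share was 31.4% with no other-tissue peak within 1 kb. By construction, windows changed shares: in 100 bp Tead was 19.5% (difference 13.7) and AP-2 8.23%, in 400 bp 40.3% and 18.8%, over whole regions 34.8% (difference 13.1) and 16.0%, where 3 other motifs in place of 13 exceeded fiber. The promoter share was 9.07% with equal numbers of peaks, 4.68% with no fiber peak within 1 kb, 4.43% within 1 kb of a start and 14.6% within 5 kb. With predicted transcripts it was 13.3%, with 51.5% gene body, 27.0% distal and 8.18% intergenic. Genes within 50 kb numbered 4584 against 2915.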
